A study of Mus musculus with 8 samples.

Results

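The 10 genes described here, Fos, Fosb, Jun, Junb, Jund, Egr1, Ier2, Nr4a1, Klf4 and Zfp36, are immediate early genes and were taken by their symbols from 22552 gene symbols in the files. All 10 were found, each with 1 annotated transcript and with no overlapping gene on either strand. Their levels were followed in translating RNA from UCP1-positive cells of 3 adipose depots. TRAP, translating ribosome affinity purification, pulls down tagged ribosomes of a chosen cell type together with the mRNA they carry. In the strain labelled C57B/6 UCP1-TRAP the tag is carried by cells positive for UCP1, the uncoupling protein with which brown and beige adipocytes make heat, and the pull-down used a rabbit antibody against GFP. There were 3 libraries of inguinal white adipose tissue (inguinal WAT), 2 of perigonadal white adipose tissue (perigonadal WAT) and 3 of interscapular brown adipose tissue (BAT). All groups were female UCP1-TRAP mice 6 weeks old that shared 1 history: breeding at 30 °C, weaning at 3 weeks into room temperature, and 2 weeks at 4 °C from the age of 4 weeks. No warm-housed group, no group without the transgene and no RNA left unbound by the antibody entered the comparisons, so a response to cold or the enrichment over whole tissue cannot be read from them. Whether the libraries of a depot came from different mice is not given by the labels, and the p-values therefore reflect library-to-library spread that may be technical.

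Immediate early genes are switched on within minutes of a stimulus, without new protein synthesis, by transcription factors that already sit in the cell. Signals through cAMP and protein kinase A act on them through CREB at cAMP response elements, and signals through MAP kinases and actin act through SRF at CArG boxes. In brown and beige adipocytes noradrenaline raises cAMP, and NR4A1 is a known target of that route. Most of the products are transcription factors: FOS and JUN proteins pair as AP-1, EGR1 and KLF4 are zinc finger factors and NR4A1 is an orphan nuclear receptor. ZFP36 is different, an RNA-binding protein that speeds the decay of AU-rich mRNAs, those of several immediate early genes among them.

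The libraries were shallow. The deposited unit was FPKM, fragments scaled to transcript length and to the library's fragment total, and the 10 genes together took only 0.0146 to 0.0329 percent of a library's summed FPKM. An estimated 264342 fragments (inguinal replicate 3) to 1148109 fragments (perigonadal replicate 1) lay on all listed transcripts, and 88 to 507 of them on the 10 genes in the same libraries. FPKM totals also differed, from 75925 in inguinal replicate 3 to 206549 in perigonadal replicate 1. Values after median-ratio scaling, in which each library is divided by a factor that brings its typical gene to a common level (0.545 to 1.81 in the same libraries), therefore stand beside the deposited ones. Marker sums describe the libraries but cannot check the pull-down, because no unbound RNA was compared. Brown and beige adipocyte genes summed to 1071 to 2301 FPKM in inguinal WAT, 2294 to 2542 in perigonadal WAT and 2629 to 3118 in BAT, with all 6 detected in each depot, and Ucp1 lay between 592 and 1594 FPKM. Markers of other cell types also appeared in inguinal libraries. Mammary luminal markers summed to 110 to 141 FPKM there against 7.02 to 22.0 in BAT. Smooth muscle markers summed to 42.4 to 134 FPKM there against 6.90 to 8.24 in BAT. RNA carried over from other cells cannot be told here from transcripts of the UCP1-positive cells themselves. Fibroblast markers summed to 115 FPKM in perigonadal replicate 1 and 21.5 in replicate 2, beside 14.6 to 24.8 in inguinal WAT and 3.39 to 11.6 in BAT, and skeletal muscle and lymphocyte markers stayed at or below 2.39 FPKM in every library.

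The stretches upstream of 3 members are shown for the following reasons. Nr4a1 and Fos had the largest within-depot standard deviations of scaled log2 values among the 7 members that could be tested. Zfp36 alone of the 8 members matched to a promoter held a CArG box in the window searched. They are the 250 bases before the start site on the coding strand, from RefSeq on GRCm38.p6, at chr15:101266596-101266845 (Nr4a1), chr12:85473640-85473889 (Fos) and, on the minus strand, chr7:28379229-28379478 (Zfp36). Capitals mark TGACG, the core of the cAMP response element, or CGTCA, the same letters on the other strand, in Nr4a1 and Fos, TATAAA in Fos, and the CArG box (CC, then 6 bases A or T, then GG) in Zfp36.
Nr4a1: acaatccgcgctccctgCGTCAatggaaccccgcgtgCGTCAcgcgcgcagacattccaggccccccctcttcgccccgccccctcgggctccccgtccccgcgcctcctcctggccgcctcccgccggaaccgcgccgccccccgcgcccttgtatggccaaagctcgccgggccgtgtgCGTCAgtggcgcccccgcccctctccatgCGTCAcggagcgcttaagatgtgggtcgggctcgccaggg
Fos: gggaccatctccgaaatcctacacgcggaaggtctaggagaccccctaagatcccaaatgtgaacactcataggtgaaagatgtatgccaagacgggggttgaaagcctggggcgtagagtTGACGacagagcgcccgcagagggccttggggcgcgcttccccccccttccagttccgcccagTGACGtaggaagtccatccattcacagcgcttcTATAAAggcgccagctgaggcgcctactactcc
Zfp36: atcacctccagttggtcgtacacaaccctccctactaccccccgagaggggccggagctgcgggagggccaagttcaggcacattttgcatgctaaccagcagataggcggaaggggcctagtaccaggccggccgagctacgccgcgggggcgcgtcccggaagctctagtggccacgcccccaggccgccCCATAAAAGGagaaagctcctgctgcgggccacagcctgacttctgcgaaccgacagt
The promoter table matched 8 of the 10 members, all but Egr1 and Ier2. In windows of 250 bases before and 50 bases after the start, searched on both strands, TGACG stood in 5 of these 8 (Fos, Fosb, Junb, Nr4a1, Klf4) and in 21.0 percent of 27025 promoters. Nr4a1 held 4 copies, the first letters of which lie at -233, -213, -69 and -40 from the start, and Fos held 2, at -129 and -66. The full palindrome TGACGTCA, which overlaps that core, stood in 0 of 8 and in 1.88 percent of all promoters. The CArG box stood in 1 of 8 (Zfp36, at -58) and in 1.57 percent, TATAAA in 2 of 8 (Fos at -33, Junb at 1) and in 14.2 percent, the GC box GGGCGG in 6 of 8 and in 35.9 percent, and the EGR element GCGTGGGCG in 0 of 8 and in 0.625 percent. The windows of Jun and Jund held neither TGACG, nor a CArG box, nor TATAAA. These matches describe letters in a window and were not tied to any binding data. Sites farther upstream than 250 bases were not searched, nor were the promoters of Egr1 and Ier2, so a CArG box there would be missed.

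Jund was the most abundant of the 10 genes per length in every depot. Its product is the JUN protein with the steadiest expression and is often present before a stimulus. Jund (NM_010592, chr8:73221638-73224515 in mm9) had, in the order of the replicate numbers that is kept throughout, 13.8, 16.0 and 6.28 FPKM in inguinal WAT, 22.2 and 11.8 FPKM in perigonadal WAT and 12.6, 17.9 and 15.4 FPKM in BAT. The means were 12.0 ± 5.12 (SD, n = 3), 17.0 ± 7.34 (SD, n = 2) and 15.3 ± 2.67 (SD, n = 3). The inguinal library with the lowest FPKM total was low and the perigonadal library with the highest total was high, and all groups overlapped. After scaling the levels were 11.4 to 14.1 in inguinal WAT, 10.2 to 12.3 in perigonadal WAT and 13.5 to 19.7 in BAT, so that perigonadal WAT lay below BAT without overlap and inguinal WAT overlapped BAT. On that scale Jund was lower in perigonadal WAT by a log2 fold change of -0.54 (95% interval -1.01 to -0.07), which did not pass (limma, unadjusted p = 0.0289, adjusted p = 0.185), while the deposited values gave 0.09 (-0.83 to 1.02, adjusted p = 0.907).

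Jun, the founding AP-1 subunit, followed the same libraries more steeply. Jun (NM_010591, chr4:94715727-94718913 in mm9) had 4.34, 4.12 and 0.849 FPKM in inguinal WAT, 7.35 and 1.24 in perigonadal WAT and 2.55, 1.59 and 2.96 in BAT. The perigonadal values rested on 76 and 11 fragments. The lowest of the 8 libraries was again inguinal replicate 3, the highest perigonadal replicate 1, and BAT lay inside the range of both white depots. Junb (NM_008416, chr8:87500808-87502647), which pairs with FOS but drives transcription less than JUN, had 2.40, 1.75 and 0.477 FPKM in inguinal WAT, 3.68 and 1.96 in perigonadal WAT and 1.71, 1.60 and 2.25 in BAT. The groups overlapped here too.

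A share within a library does not depend on how libraries are scaled, and it was computed after the levels had been seen. Jund made up 67.3, 73.2 and 82.6 percent of the summed FPKM of Jun, Junb and Jund in inguinal WAT, 66.8 and 78.7 percent in perigonadal WAT and 74.7, 84.9 and 74.7 percent in BAT. Jund thus held most of the JUN transcripts in all 8 libraries, with ranges that overlapped between depots. Jun contributed 7.55 percent (BAT replicate 2) to 22.1 percent (perigonadal replicate 1) and Junb 6.27 to 13.1 percent.

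Fos, the inducible partner of the JUN proteins, was scarce. Fos (NM_010234, chr12:86814851-86818219) had 1.10, 1.33 and 0.234 FPKM in inguinal WAT, 0.675 and 0 in perigonadal WAT and 0.250, 0 and 3.06 in BAT. In fragments these were 5, 6 and 1, then 4 and 0, then 1, 0 and 13. BAT replicate 3 held most of the BAT signal, and its 13 fragments (exact 95% Poisson interval 6.92 to 22.2, counting error only) lay above the interval of the other BAT libraries (0.0253 to 5.57 for 1 fragment and up to 3.69 for 0). Fosb (NM_008036, chr7:19888045-19895394), a close relative of Fos with splice forms that persist longer, had 1 fragment in each of inguinal replicates 1 and 2 and perigonadal replicate 1 and was listed at 0 in the other 5 libraries. That depth allows no comparison between depots for Fosb.

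**Figure D1:**
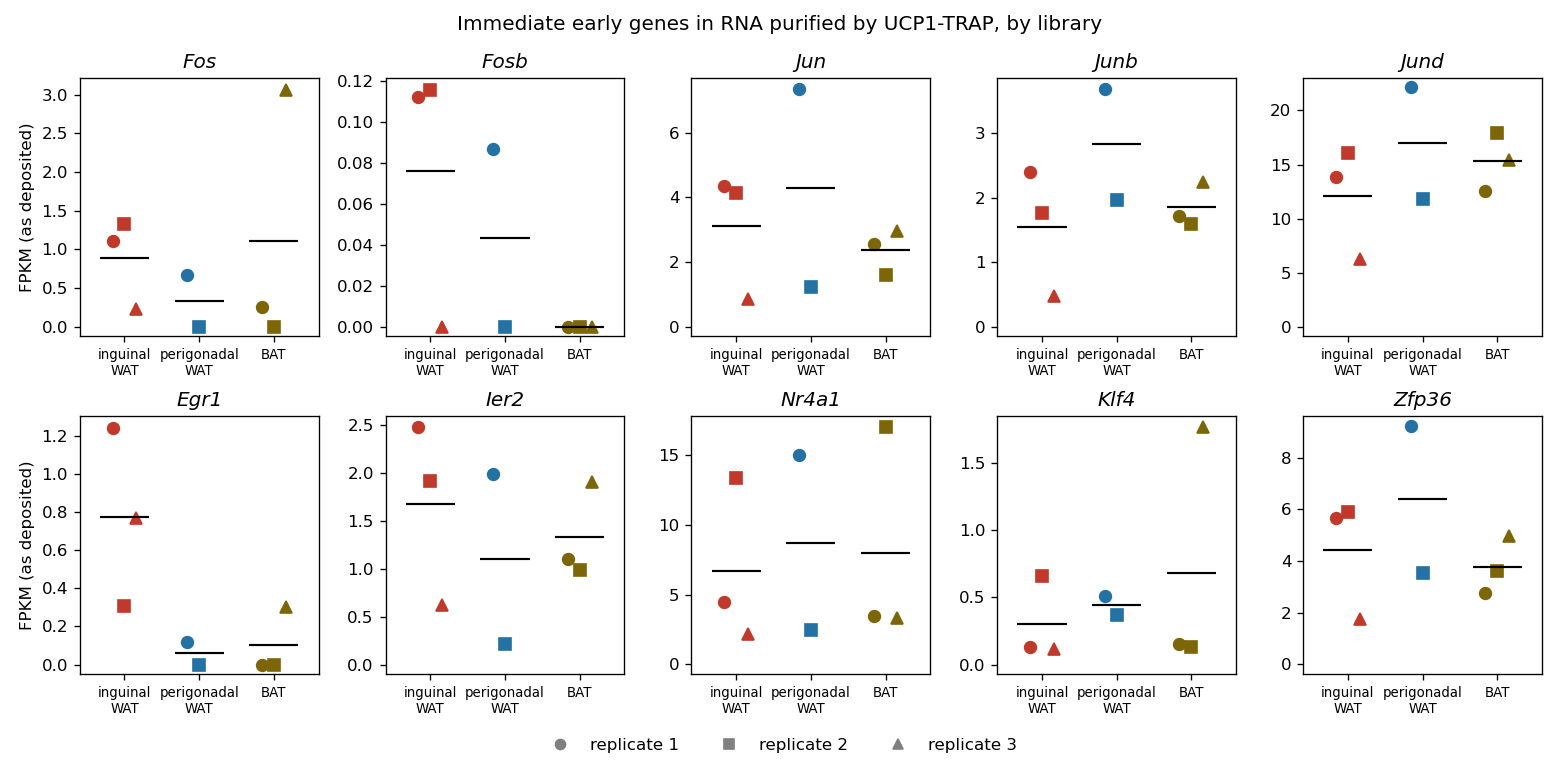
FPKM of the 10 immediate early genes in each library (vertical axis, own scale per gene) by depot, with replicates 1, 2 and 3 as circles, squares and triangles and the depot mean as a line. Perigonadal replicate 1 is above replicate 2 for all 10 genes, inguinal replicate 3 is the lowest of its depot for 9 of 10 (all but Egr1), and Nr4a1 shows 1 high library in every depot.

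Nr4a1 had 1 high library in every depot, and the difference from the other libraries of the depot exceeded counting error. Nr4a1 (NM_010444, chr15:101097277-101105225) had 4.50, 13.3 and 2.18 FPKM in inguinal WAT, 15.0 and 2.46 in perigonadal WAT and 3.48, 17.0 and 3.32 in BAT. The fragments were 26, 75 and 13, then 115 and 15, then 17, 98 and 19. Inguinal replicate 2, perigonadal replicate 1 and BAT replicate 2 were the high libraries, and the depot means of 6.67 ± 5.90 (SD, n = 3), 8.71 ± 8.83 (SD, n = 2) and 7.94 ± 7.86 FPKM (SD, n = 3) were close beside that spread. As FPKM, the exact 95% Poisson interval of the high library (10.5 to 16.7, 12.3 to 18.0 and 13.8 to 20.7) did not reach that of any other library of its depot, the highest bound of which was 6.59. Scaling left 1 high library per depot, with 11.7 against 3.71 and 4.00 in inguinal WAT, 8.27 against 2.13 in perigonadal WAT and 18.8 against 3.75 and 3.74 in BAT.

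The ratio of Nr4a1 to Jund inside a library showed the same libraries. It was 0.833 in inguinal replicate 2 against 0.325 and 0.347 in the other inguinal libraries, 0.674 against 0.209 in perigonadal WAT, and 0.951 in BAT replicate 2 against 0.277 and 0.216. The within-depot standard deviation of scaled log2 values was 1.03 for Nr4a1, above 99.2 percent of 2710 tested genes whose mean lay within 2-fold of its own (median 0.27), a description chosen after its values were seen. Fos followed with 0.77 (97.1 percent of 2664 genes of like level) and Jun with 0.55 (88.0 percent of 3848). Junb (0.25) and Jund (0.21) varied less than the median of genes of like level (0.32 and 0.26). The labels give no time of day, handling order or other record that tells the high libraries from the low ones. By the ratio of the highest to the lowest library, members with few fragments ranged wider in places, Klf4 13.7-fold in BAT and Ier2 9.40-fold in perigonadal WAT against 5.13-fold and 6.07-fold for Nr4a1. Jun ranged 5.95-fold in perigonadal WAT, with Poisson intervals that did not meet (5.79 to 9.2 and 0.617 to 2.21 FPKM). With 2 perigonadal libraries 1 is always the higher, and the split there was not particular to Nr4a1.

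The high Nr4a1 library was not the high library of the group as a whole in BAT. BAT replicate 3 had the highest FPKM of 7 of the 9 members detected there (Fos, Jun, Junb, Egr1, Ier2, Klf4 and Zfp36), while replicate 2 led for Nr4a1 and Jund, and scaling gave the same 7 and 2 genes. In inguinal WAT replicate 2 led for 6 members and replicate 1 for 4, and after scaling replicate 2 led for 7. In perigonadal WAT replicate 1 led for all 10 members as deposited and for 9 after scaling, Klf4 being the exception.

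**Figure D2:**
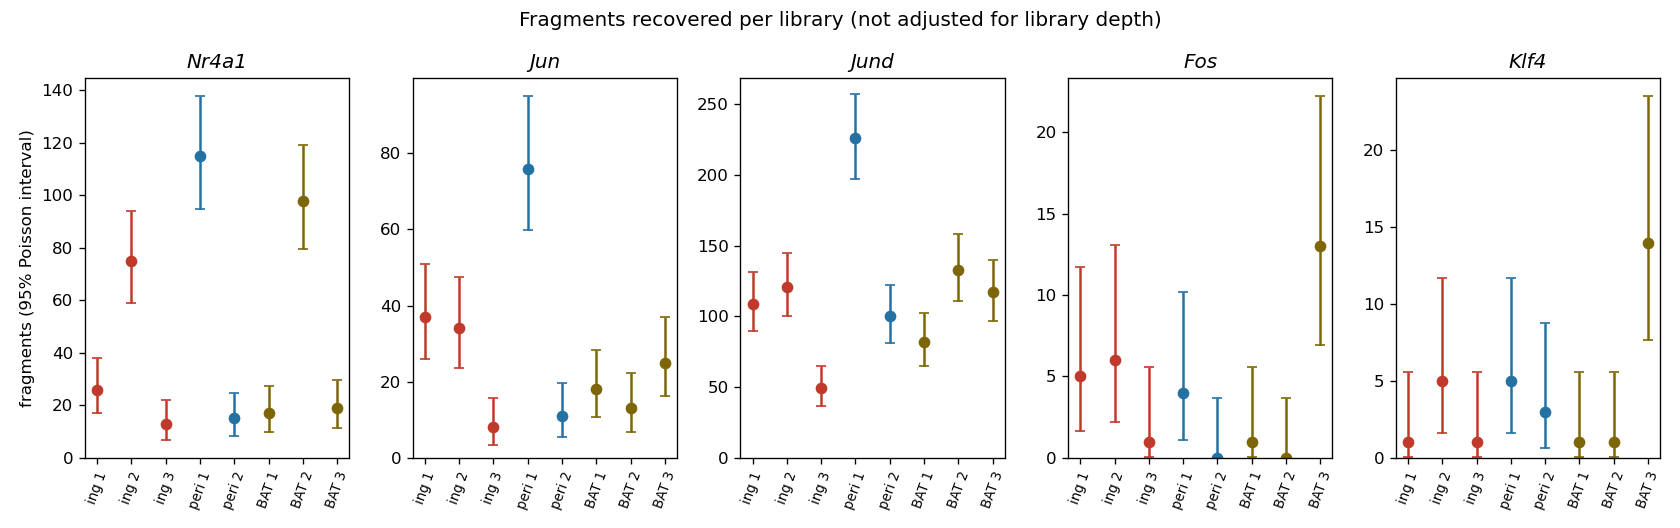
Fragments recovered per library (vertical axis, own scale per gene, not adjusted for library depth) for Nr4a1, Jun, Jund, Fos and Klf4, with exact 95% Poisson intervals as bars. The Nr4a1 counts of 75, 115 and 98 stand clear of the other libraries of their depots, and Fos and Klf4 reach 13 and 14 fragments in BAT replicate 3.

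Nr4a2 and Nr4a3, chosen after the values of Nr4a1 were seen, encode receptors with near-identical DNA-binding domains. Nr4a2 had 2.02, 2.44 and 0.775 FPKM in inguinal WAT, 3.10 and 2.16 in perigonadal WAT and 1.29, 2.29 and 1.61 in BAT. Nr4a3 had 0.234, 0.687 and 0.241 FPKM, then 0.700 and 0.657, then 0, 0.726 and 0, from at most 4 fragments in a library. As deposited both were highest in the 3 libraries in which Nr4a1 was, while after scaling perigonadal replicate 2 exceeded replicate 1 for both (1.87 against 1.72 for Nr4a2 and 0.569 against 0.387 for Nr4a3). Nr4a1 supplied 46.6 percent (perigonadal replicate 2) to 85.0 percent (BAT replicate 2) of the summed NR4A FPKM. Sik1, a kinase gene induced by cAMP and picked in the same way, had 5.47, 13.05 and 3.34 FPKM in inguinal WAT, 19.8 and 7.38 in perigonadal WAT and 2.93, 5.49 and 4.69 in BAT, and was highest in the same 3 libraries. Plk3, a stress-response kinase gene also picked after its values were seen, had 13.6 FPKM in inguinal replicate 2 against 2.25 and 2.68 in the other inguinal libraries and 16.5 against 4.58 in perigonadal WAT, but only 4.35 in BAT replicate 2 beside 3.25 and 5.77. Crem had 3.09, 5.84 and 3.35 FPKM in inguinal WAT, 3.48 and 3.66 in perigonadal WAT and 4.86, 2.03 and 6.79 in BAT. It was thus highest in inguinal replicate 2 but lowest of its depot in BAT replicate 2. Per1 was highest in the same inguinal and perigonadal libraries as Nr4a1. In BAT it had 1.83, 2.26 and 3.93 FPKM, highest in replicate 3. Over the 8 libraries the scaled log2 values of Nr4a1 had a Pearson r of 0.50 with Sik1, 0.51 with Plk3, 0.48 with Dusp1, -0.01 with Per1 and 0.23 with Ucp1. With the members Jund, Zfp36 and Jun it was 0.65, 0.38 and 0.24. Among 3116 genes with a mean FPKM of at least 5 those most like Nr4a1 on that scale were Mfsd2a (0.91), Clic4 (0.90), Sdc4 (0.90), Pck1 (0.87) and Dynlt1b (0.86). These are descriptions over libraries that share their depots and depth.

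Egr1 was detected in all inguinal libraries and in few others. EGR1 is a zinc finger factor induced by MAP kinase and SRF signalling. Egr1 (NM_007913, chr18:35020861-35024610) had 1.24, 0.308 and 0.767 FPKM in inguinal WAT, 0.118 and 0 in perigonadal WAT and 0, 0 and 0.302 in BAT, from 8, 2 and 5, then 1 and 0, then 0, 0 and 2 fragments. As deposited, the inguinal libraries lay above the others without overlap, by 0.308 against 0.302 FPKM at the closest, with 2 fragments behind each of those values. After scaling, inguinal WAT overlapped BAT (0.271 against 0.341) and still lay above perigonadal WAT. Egr1 did not pass the filter on low values (2 or more libraries with an FPKM of 1 or above). Without that filter its log2 fold change was 0.66 ± 0.21 (SE) for inguinal WAT against BAT (limma, unadjusted p = 0.0135, adjusted p = 0.457), with 3 against 3 libraries.

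Its relatives Egr2 and Egr3, looked at after the values of Egr1 were seen, had the same pattern at similar depth. Egr2 had 10, 5 and 2 fragments and Egr3 3, 1 and 1 in the inguinal libraries, and both were listed at 0 in the other 5 libraries, where a count of 0 allows up to 3.69 fragments per library. Egr4 was listed at 0 in all 8. Without the filter, Egr2 had a log2 fold change of 0.94 ± 0.22 (SE, limma adjusted p = 0.186) and Egr3 of 0.59 ± 0.15 (SE, adjusted p = 0.225) for inguinal WAT against BAT, so none of these EGR genes passed. Egr2 and Egr3 entered that fit only through the inguinal libraries, in which they were high. With the other 5 libraries at 0, their standard errors hold no spread from those libraries. The fit therefore adds no support to the pattern. Several lists of markers of other cell types were also higher in inguinal WAT, while others were not. All 8 mammary luminal markers in the files were detected in inguinal WAT while 7 of 8 were at 0 in all BAT libraries, basal and myoepithelial keratins and partners summed to 10.8 to 29.0 FPKM in inguinal WAT, 4.87 to 5.76 in perigonadal WAT and 0 in BAT, and smooth muscle markers to 42.4 to 134 against 7.96 to 14.1 and 6.90 to 8.24. Lymphocyte markers summed to 1.19 to 1.89 FPKM in inguinal WAT and to at most 0.892 elsewhere. Red blood cell markers went the other way, with 0 to 1.26 FPKM in inguinal WAT, 7.27 to 13.9 in perigonadal WAT and 4.01 to 8.37 in BAT. Endothelium markers summed to 1.04 to 4.35, 7.38 to 13.7 and 2.61 to 4.11 FPKM in the same order, and macrophage markers to 3.78 to 6.87, 6.45 to 15.3 and 3.97 to 7.81. The part of any of these cell types in the EGR values was not tested, and fewer cells of a type cannot be told from less RNA per cell in bulk samples like these.

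**Figure D3:**
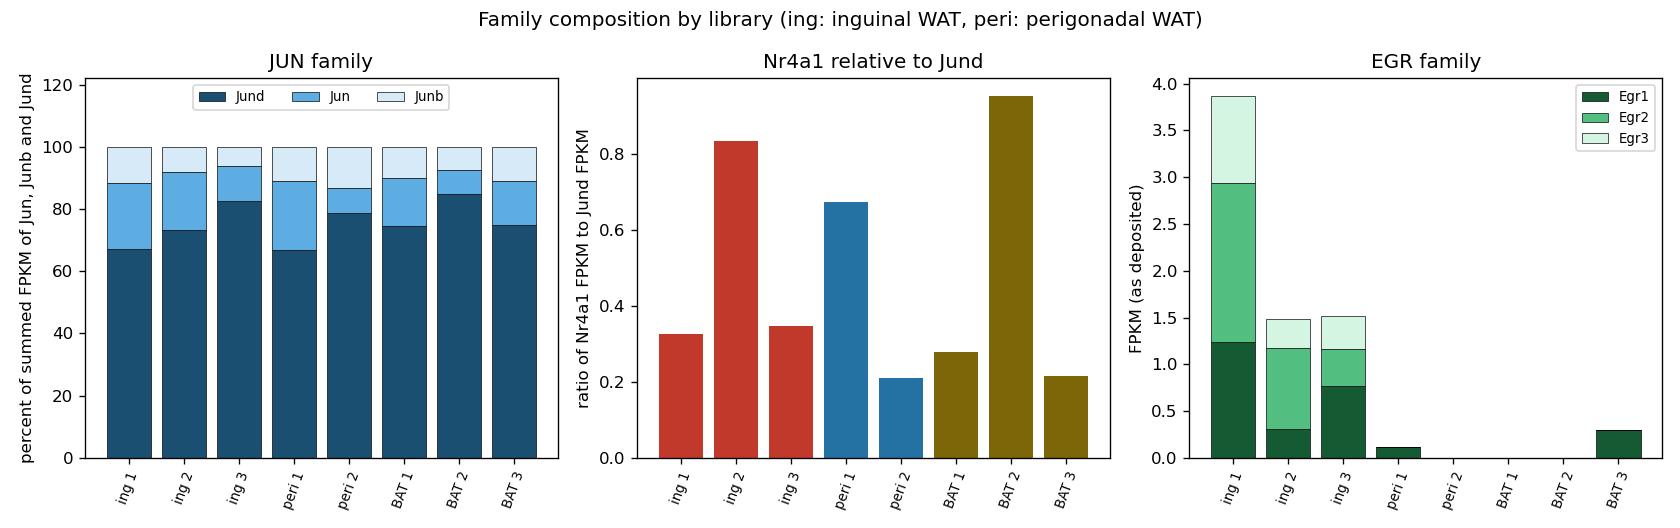
Left, shares of Jund, Jun and Junb in their summed FPKM (percent). Middle, ratio of Nr4a1 to Jund FPKM. Right, stacked FPKM of Egr1, Egr2 and Egr3; bars are the 8 libraries (ing, inguinal WAT; peri, perigonadal WAT). Jund holds 66.8 to 84.9 percent of the JUN family, the Nr4a1 ratio reaches 0.833, 0.674 and 0.951 in 1 library per depot, and EGR transcripts are nearly all in inguinal libraries.

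The remaining members are a zinc finger factor of epithelia and vessel walls (Klf4), a short-lived nuclear protein (Ier2) and the RNA-decay factor Zfp36. Klf4 (NM_010637, chr4:55540009-55545347) had 0.131, 0.660 and 0.115 FPKM in inguinal WAT, 0.513 and 0.370 in perigonadal WAT and 0.154, 0.129 and 1.77 in BAT, and 14 of its 16 BAT fragments came from replicate 3. Ier2 (NM_010499, chr8:87185230-87186751) had 2.48, 1.91 and 0.626 FPKM in inguinal WAT, 1.99 and 0.212 in perigonadal WAT and 1.10, 0.984 and 1.91 in BAT. Its scaled levels of 1.15 to 2.05 in inguinal WAT lay above 0.184 and 1.10 in perigonadal WAT without overlap (log2 fold change 0.72, 95% interval 0.01 to 1.43), which did not pass (limma, unadjusted p = 0.0472, adjusted p = 0.649). The lower perigonadal value was 1 fragment.

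Zfp36 (NM_011756, chr7:29161803-29164247) had 5.67, 5.91 and 1.76 FPKM in inguinal WAT, 9.24 and 3.56 in perigonadal WAT and 2.78, 3.60 and 4.99 in BAT. Scaled levels ran from 3.23 to 5.20, 3.08 to 5.11 and 2.99 to 5.63, nearly the same range in the 3 depots. Among the ZFP36 proteins, Zfp36 supplied 22.3 to 28.8 percent of the summed FPKM of Zfp36, Zfp36l1 and Zfp36l2 in inguinal WAT, 15.3 and 18.2 percent in perigonadal WAT and 21.4 to 24.7 percent in BAT. The perigonadal shares were the lowest of the 8, and Zfp36l2 in those libraries reached 33.1 and 15.6 FPKM. It had 8.53, 13.9 and 3.60 FPKM in inguinal WAT and 4.44, 11.1 and 10.1 in BAT. After scaling the perigonadal values were 18.3 and 13.5, beside at most 12.2 in each other depot. Zfp36l2 was not called on either scale. The limma adjusted p was 0.0704 and 0.277 after scaling against BAT, and 0.181 and 0.635 between the white depots.

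By mean FPKM the order was Jund, Nr4a1, Zfp36, Jun in every depot, with Fosb last. The next places went to Ier2 and Junb in inguinal WAT and to Junb and Ier2 in the other depots. The ranges of all neighbours in this order overlapped in each depot, so no step in it exceeded the spread between libraries. Jund was nevertheless above Nr4a1 and Zfp36 above Jun in each of the 8 libraries taken alone.

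Across depots the members were compared by limma on log2(FPKM + 1), with p-values adjusted by the Benjamini-Hochberg method over all 8958 genes that passed the filter, and a gene was called at an adjusted p under 0.05. Of the 10 members 7 were tested, all but Fosb, Egr1 and Klf4. For inguinal WAT against BAT 0 of 7 were called, where 2.2 percent of all tested genes were, and 0 of 7 had an unadjusted p under 0.05. Their log2 fold changes ran from -0.40 (Jund) to 0.16 (Jun), with a median of 0.08 beside 0.03 over all genes. After scaling 0 of 7 were called against 4.69 percent of all genes, 0 had an unadjusted p under 0.05, and the medians were 0.02 and 0.01. The depots overlapped for all 7 tested members on both scales, where 12.2 percent of all tested genes did not overlap as deposited and 24.9 percent after scaling. Of the untested members Egr1 did not overlap as deposited.

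For perigonadal WAT against BAT 0 of 7 were called, against 5.18 percent of all genes, and 0 had an unadjusted p under 0.05. The members' median log2 fold change was 0.09 while that of all genes was 0.52. After scaling 0 of 7 were called against 6.1 percent, Jund having the 1 unadjusted p under 0.05. On that scale all 7 were lower in perigonadal WAT, from -0.62 (Ier2) to -0.03 (Zfp36), with a median of -0.50 beside 0.03 over all genes, but 6 of the 7 intervals include 0. Of the 7 tested members 0 did not overlap as deposited and 1 (Jund) after scaling, where 52 and 39.6 percent of all tested genes did not. The deposited directions were 5 higher and 2 lower, so no direction is given for the group. Without perigonadal replicate 1, the members' median as deposited was -0.57, and without replicate 2 it was 0.72, so the sign of the median rested on which of the 2 perigonadal libraries was kept.

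For inguinal against perigonadal WAT 0 of 7 were called, against 0.703 percent of all genes, and 0 had an unadjusted p under 0.05. The median was -0.24 beside -0.50 over all genes. After scaling 0 of 7 were called against 0.313 percent, Ier2 having the 1 unadjusted p under 0.05, and the median was 0.23 beside -0.01. Of the 7 tested members 0 did not overlap as deposited and 2 (Fos, Ier2) after scaling, where 28.9 and 23.5 percent of all tested genes did not. Egr1, untested, did not overlap on either scale. Without perigonadal replicate 1 the deposited median was 0.73 and without replicate 2 it was -0.96. The 3 comparisons share their libraries pairwise, so their values are not independent of each other.

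**Figure D4:**
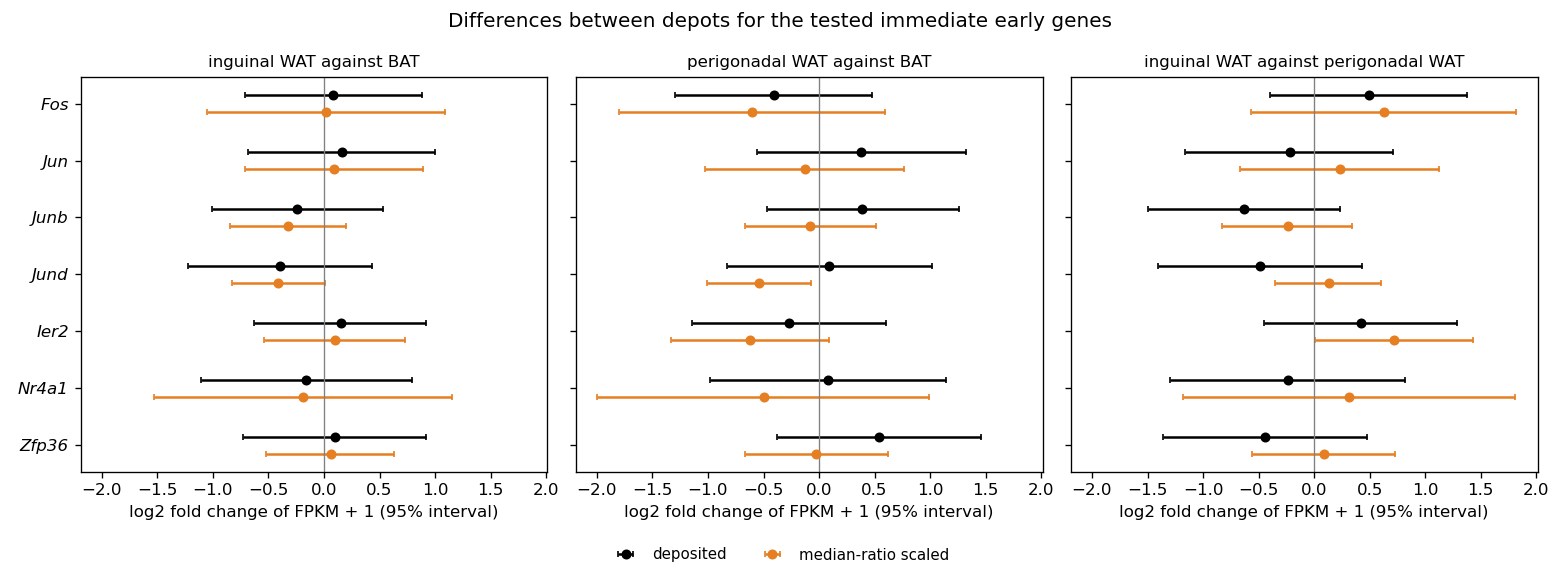
Log2 fold change of FPKM + 1 for the 7 tested members in each comparison (horizontal axis; right of 0, higher in the depot named first), as deposited (black) and after median-ratio scaling (orange), with 95% limma intervals as bars. All 21 deposited intervals include 0, and after scaling those of Jund for perigonadal WAT against BAT (-1.01 to -0.07) and Ier2 for inguinal against perigonadal WAT (0.01 to 1.43) do not.

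The intervals show what these libraries could not resolve. For inguinal WAT against BAT the deposited interval of Nr4a1 was -1.11 to 0.79 and that of Zfp36 -0.73 to 0.92, so a 2-fold lower level (-1 on this scale) lay inside the interval of Nr4a1. After scaling the interval of Zfp36 narrowed to -0.52 to 0.63 and that of Nr4a1 widened to -1.53 to 1.15. The variance of each gene is drawn by limma toward that of genes of like level. These intervals therefore do not rest on a gene's own spread alone. As deposited the standard errors were alike, 0.47 for Nr4a1, 0.41 for Jund and 0.39 for Junb. Without the filter that of Nr4a1 was 0.81, so its deposited bound of 0.79 does not exclude a 2-fold higher level.

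Among 12 other AP-1 and bZIP partner genes, all in the files and 8 tested, 1 was called for inguinal WAT against BAT and 0 in the other comparisons. Atf3, a stress-induced factor that pairs with JUN, was lower in inguinal WAT. It had 3.01, 3.71 and 2.14 FPKM there, 8.37 and 4.06 in perigonadal WAT and 10.7, 5.51 and 19.5 in BAT, with log2 fold change -1.57 ± 0.42 (SE, limma adjusted p = 0.0198) and -1.60 after scaling (adjusted p = 0.0324). Inguinal WAT lay below BAT without overlap on both scales. It no longer passed when BAT replicate 3 was left out (-1.16, adjusted p = 0.44), nor without inguinal replicate 1, inguinal replicate 3 or BAT replicate 1 (adjusted p of 0.108, 0.0763 and 0.0964), and after scaling it held only without BAT replicate 2 (0.00857) among the 8 such fits. It was also lost with a pseudocount of 0.1 (0.0852), without the filter (0.352) and with the most abundant transcript per gene (0.152). The median over the list was -0.28 beside 0.03 over all genes. Atf2, the other gene named of this list, had 6.97, 12.9 and 10.03 FPKM on average in inguinal WAT, perigonadal WAT and BAT and was not called.

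Of 48 other immediate early and rapid response genes 34 were tested. For inguinal WAT against BAT 1 was lower and 0 higher, for perigonadal WAT against BAT 1 was lower and 1 higher, and 0 were called between the white depots. Myc, a growth-promoting factor, was lower in both white depots by the test. It had 1.17, 0.165 and 0.663 FPKM in inguinal WAT, 1.08 and 0 in perigonadal WAT and 3.81, 1.10 and 6.14 in BAT, with log2 fold changes of -1.37 (limma adjusted p = 0.0473) and -1.53 (adjusted p = 0.0269). Perigonadal WAT lay below BAT, but inguinal replicate 1 was above BAT replicate 2. Rhob, a small GTPase gene, was higher in perigonadal WAT, with 28.3 and 12.5 FPKM against 3.77, 6.20 and 7.42 in BAT (log2 fold change 1.59, adjusted p = 0.0319) and 12.7, 13.5 and 3.94 in inguinal WAT. None of these 3 calls held after scaling (adjusted p of 0.112, 0.0573 and 0.092), and each was lost without BAT replicate 1 (0.219, 0.0957 and 0.201) and without BAT replicate 3 (0.585, 0.226 and 0.0502). The Myc call against inguinal WAT was also lost without any of the inguinal libraries (0.096 to 0.284), that against perigonadal WAT without perigonadal replicate 2 (0.187) or inguinal replicate 1 (0.0515), and the Rhob call without perigonadal replicate 1 (0.895), BAT replicate 2 (0.0779) or inguinal replicate 1 (0.0521). In the same order the 3 calls were also lost with a pseudocount of 0.1 (0.377, 0.106 and 0.119), without the filter (0.615, 0.262 and 0.24) and with short genes kept (0.0999, 0.0559 and 0.0596). Quantile normalization ended the inguinal Myc call (0.0852) and the Rhob call (0.0695), a fit without the variance trend the inguinal Myc call (0.0705) and the most abundant transcript the Rhob call (0.152). The medians over the list were -0.04, 0.54 and -0.66 in the 3 comparisons, beside 0.03, 0.52 and -0.50 over all genes.

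The genes that act on these promoters or products gave no call. Of 24 upstream regulators (CREB, SRF and their coactivators and kinases) 21 were tested and 0 called in any of the 3 comparisons, on either scale, although 6 were higher in perigonadal WAT than in BAT at an unadjusted p under 0.05, as were 20.4 percent of all tested genes. Prkaca, the catalytic subunit of protein kinase A, averaged 55.5 FPKM in inguinal WAT, 84.4 in perigonadal WAT and 41.3 in BAT (perigonadal WAT against BAT, log2 fold change 1.0, limma adjusted p = 0.176, and 0.33 after scaling, adjusted p = 0.335). Mapkapk2 averaged 34.6, 52.7 and 39.9 FPKM, and its uncalled difference between perigonadal WAT and BAT turned from 0.39 to -0.27 with scaling. Of 9 negative regulators of EGR and JUN factors 7 were tested and 0 called, with Cul3 averaging 19.7 FPKM in inguinal WAT, 28.0 in perigonadal WAT and 16.1 in BAT (perigonadal WAT against BAT 0.78 as deposited and 0.14 after scaling, log2). Of 14 heat shock genes, which also respond to stress during tissue handling, all were tested and 0 called as deposited. Hsp90ab1 averaged 83.0, 111 and 94.96 FPKM and Hspa8 170, 212 and 136.

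After scaling, 2 heat shock genes were called for inguinal WAT against BAT. Hspa1b, an inducible HSP70 gene whose values are uncertain because a near-identical neighbour can share its reads, had 2.37, 2.34 and 1.54 FPKM in inguinal WAT and 0.271, 0.131 and 0.637 in BAT (scaled log2 fold change 1.26, limma adjusted p = 0.018, 0.0694 as deposited). That neighbour, Hspa1a, had 1.39, 0.418 and 1.15 FPKM in inguinal WAT and 0.273, 0.379 and 0.247 in BAT. After scaling Hspa1a overlapped between these depots and was not called (log2 fold change 0.66, limma adjusted p = 0.274). Both genes reached an FPKM of 1 only in inguinal libraries, so they passed the filter through the depot in which they were higher. The BAT values of Hspa1b rested on 1, 1 and 5 fragments. Its call is therefore given as a description and not as support for a difference between depots. Hspe1, a mitochondrial chaperonin gene, was lower in both white depots after scaling (-0.86, adjusted p = 0.0184, in inguinal WAT and -1.25, adjusted p = 0.00469, in perigonadal WAT). The Hspa1b call was lost without inguinal replicate 3, BAT replicate 1 or BAT replicate 2 (adjusted p of 0.0571, 0.0659 and 0.0663). The Hspe1 call was lost in inguinal WAT without inguinal replicate 1, inguinal replicate 2 or BAT replicate 1 (0.0559, 0.0633 and 0.0759) and in perigonadal WAT without perigonadal replicate 1 (0.0575).

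Centred per gene, the mean profile of the tested members was lowest in inguinal replicate 3 (-0.84 on the log2 scale) and highest in perigonadal replicate 1 (0.73), the libraries in which the median of all tested genes was also lowest (-0.61) and highest (0.64). In perigonadal replicate 2 they differed in sign, with -0.53 for the members and 0.13 for all genes, and in BAT replicate 3 too, with 0.23 and -0.16. After scaling the profile was lowest in perigonadal replicate 2 (-0.60) and highest in BAT replicate 3 (0.40). The 5 genes most like that profile over the 8 libraries, among 3116 with a mean FPKM of at least 5, were Zbtb20, Mrpl40, Rpl14, Tspan17 and Nsa2 (Pearson r of 0.94 to 0.95). These correlations share the libraries' scale, and after scaling they were 0.71, 0.89, 0.79, 0.80 and 0.87.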

How the data were processed

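The authors deposited, per library, a list of transcripts with FPKM values and their confidence bounds, made with TopHat and Cufflinks (versions not given in the sources used here) on mm9, per the submitters' processing notes. FPKM stands there as a text attribute of each of 28702 transcripts, and a gene's transcripts were added up. Fragments were recovered from FPKM and its upper bound for genes with 1 transcript, and 84.8 to 92.9 percent of values under 50 fragments came out whole within 0.05. Poisson intervals (95%) cover counting error only.

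Genes of 300 nt or more that reached an FPKM of 1 in 2 or more libraries were tested by limma 3.58.1 (R 4.3.3) with a variance trend on log2(FPKM + 1) over all 8 libraries, with Benjamini-Hochberg adjustment over 8958 genes. Fold changes on that scale understate the change of low genes. The script was tested on simulated data. Tables were made with Python 3.11.15, pandas 2.3.3, numpy 2.4.6 and scipy 1.17.1. Alternatives changed the pseudocount, filter, scaling, libraries, block, trend and transcript choice.

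All members were named. Of each other list the rule named the called genes and, where fewer than 2 were called, the 2 of highest mean FPKM, and for likeness the 5 genes of highest correlation with the members' mean profile; Egr2, Egr3, Nr4a2, Nr4a3, Plk3, Sik1, Dusp1, Per1, Zfp36l1, Zfp36l2, Hspa1b, Hspe1, Ucp1 and the genes most like Nr4a1 were chosen after their values were seen. A gene that the rule names is not reported here. Members and lists were chosen with earlier results of these data known, and Hspa1a and Crem after their values were seen.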

Additional observations from a re-analysis of the deposited data

How the results depend on the processing

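The number of members called was 0 of those tested in each comparison under all 27 alternatives, 8 of them (leaving out a library after scaling) chosen after seeing the data. The lowest adjusted p of a member was 0.103, in perigonadal WAT against BAT without perigonadal replicate 2. The number of genes called moved more, and the cause was not tested. For inguinal WAT against BAT (197 genes) it was 131 with a pseudocount of 0.1, 11 without the filter, 124 at FPKM of at least 5, 420 after median-ratio scaling, 407 after quantile normalization, 93 with the most abundant transcript and 109 (without inguinal replicate 1) to 336 (without inguinal replicate 3) with a library left out. For perigonadal WAT against BAT (464) it was 214 with a pseudocount of 0.1, 117 without the filter, 307 at FPKM of at least 5, 1079 with only the groups compared, 174 with the most abundant transcript and 105 (without perigonadal replicate 1) to 1326 (without inguinal replicate 3). For inguinal against perigonadal WAT (63) it was 5 and 146 with pseudocounts of 0.1 and 5, 9 without the filter, 32 at FPKM of at least 5, 40 with short genes kept, 28 after median-ratio scaling, 39 after quantile normalization, 34 with only the groups compared, 12 with the most abundant transcript and 6 (after scaling, without perigonadal replicate 1) to 220 (without perigonadal replicate 2).

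Signs of uncalled members changed in 125 values and did not in 429, and the cause was not tested. For inguinal WAT against BAT, Fos became -0.02 with a pseudocount of 5 and -0.07 after quantile normalization. With a library left out, on deposited or scaled values, log2 fold changes there ran from -0.39 to 0.70 (Fos), -0.08 to 0.47 (Ier2), -0.11 to 0.66 (Jun), -0.49 to 0.11 (Junb), -0.75 to 0.52 (Nr4a1) and -0.13 to 0.53 (Zfp36). For perigonadal WAT against BAT, median-ratio scaling and quantile normalization gave -0.13 and -0.17 for Jun, -0.08 and -0.16 for Junb, -0.54 and -0.39 for Jund, -0.50 and -0.43 for Nr4a1 and -0.03 and -0.03 for Zfp36. With a library left out the ranges were -1.03 to 0.21 (Fos), -0.98 to 0.38 (Ier2), -0.75 to 1.33 (Jun), -0.15 to 0.72 (Junb), -0.68 to 0.52 (Jund), -1.26 to 1.18 (Nr4a1) and -0.30 to 1.12 (Zfp36). For inguinal against perigonadal WAT the same scalings gave 0.23 and 0.23 for Jun, 0.13 and 0.06 for Jund, 0.31 and 0.25 for Nr4a1 and 0.09 and 0.07 for Zfp36. With a library left out the ranges were -0.23 to 1.08 (Ier2), -1.17 to 0.85 (Jun), -0.92 to 0.24 (Jund), -1.34 to 1.08 (Nr4a1) and -1.03 to 0.37 (Zfp36). Where 1 perigonadal library is left, it is assumed to vary like the other groups.

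Whether replicate numbers pair the samples was not settled. Between inguinal WAT and BAT, same-numbered libraries had correlations of 0.13, 0.08 and 0.10, and differently numbered ones -0.08 to -0.03. Between the white depots these were -0.03 and -0.09 for same-numbered libraries and -0.06 to 0.09 for the others. Between perigonadal WAT and BAT they were -0.01 and -0.02 for same-numbered libraries and -0.01 to 0.02 for the others. With the replicate block 280, 418 and 88 genes and 0 members were called, and uncalled signs changed for Jund (-0.09) and Nr4a1 (-0.35) in perigonadal WAT against BAT and Nr4a1 (0.19) between the white depots. Of the other named genes the block ended the call of Myc in perigonadal WAT against BAT (limma adjusted p = 0.0557) and added that of Hspa1b in inguinal WAT against BAT (0.0482).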
